A study of Mus musculus with 11 samples.

Results

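The clustered protocadherins are 3 families of cadherin-related adhesion proteins, alpha, beta and gamma, encoded side by side on mouse chromosome 18. They were examined here in EGFP-labeled intermediate progenitors (IPs) sorted from the Tbr2 mutant embryonic cortex. Every probe whose gene symbol in the platform annotation begins with Pcdha, Pcdhb or Pcdhg was taken. That gave 67 of the 45281 probes on the Illumina bead array, for 54 of the 19057 genes named there: 19 probes for 12 alpha genes, 25 probes for 22 beta genes and 23 probes for 20 gamma genes. RefSeq names 14 alpha, 22 beta and 22 gamma genes, of which Pcdha4, Pcdha8, Pcdhgb1 and Pcdhga11 were matched by no probe. Pcdhgb8 is a transcribed pseudogene in RefSeq.

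The samples were total RNA of basal progenitors, another name for IPs, from Tbr2 conditional knockout cortex at embryonic day (E) 13, with 5 arrays, and at E16, with 6 arrays. All 11 arrays carried the same genotype, a Tbr2 floxed allele (Tbr2 fl/fl) removed in the cortex together with the Tbr2-EGFP reporter used for sorting, so each comparison below is between stages of the mutant. Which Cre line was used for the sorted cells, and which litter each array came from, are not given in the sources used here. The methods name 3 different litters without making clear which stage or stages they cover. The p-values therefore measure the spread between arrays. Control arrays of this design belong to a different deposit and were not analysed here. In a sorted population, fewer cells that express a gene and less RNA of it per cell cannot be told apart.

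Clustered protocadherins work as cell-surface labels. Each alpha and gamma variable exon has its own promoter and is spliced to constant exons shared by its cluster, whereas beta genes are encoded by single exons without a shared constant part. A neuron uses a few of these promoters, a choice that involves DNA methylation, the insulator protein CTCF and cohesin, while the C-type members of the alpha and gamma clusters (Pcdhac1, Pcdhac2, Pcdhgc3, Pcdhgc4 and Pcdhgc5) are known for broader use in neurons. The proteins bind like to like between cells, and are known in the nervous system for dendrite self-avoidance, axon arrangement and neuronal survival. Because members of a cluster are close copies and share exons, a probe may read more than its named gene, and which exon each probe reads is not known here.

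Markers of IPs were present on every array, with 14 of 15 IP genes and 13 of 14 neuronal genes detected on each. Of 12 radial glial genes, 11 or 12 were detected on each array as well, so these counts do not tell IPs from radial glia. Eomes, which encodes TBR2, read 2534 ± 172 (SD, n = 5) at E13 and 1951 ± 558 (n = 6) at E16 in quantile-normalized signal, the scale used below unless another is named. Whether its probe lies in the removed exons is not known, so this value is no check of the genotype. Array 64 of E13 stood apart, with 10 of 11 interneuron genes and 6 of 6 erythroid genes detected, against 4 to 7 and 1 to 3 on the other 10 arrays. It also had 9 of 14 endothelial and pericyte genes detected (1 to 4 on the others), 8 of 10 microglial genes (1 to 3) and 7 of 10 meningeal genes (0 to 2). Values without array 64 are given where its removal ended a call, turned a direction or moved a log2 fold change by over 1.5 times. This covers only the 19 protocadherin probes detected on all arrays. For other probes and genes named below, no value without that array is given.

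Of the 67 probes, 19 (28.4%, for 18 genes) were detected on all 11 arrays, against 36.2% of all probes on the platform, where detection means a detection p-value below 0.05. Another 24 were detected on some arrays and 24 (35.8%) on none, the latter against 44.2% of all probes. Protocadherin probes were thus found on some arrays but not others more often than probes at large, a description of the members and not a test. On single arrays 41.8 to 49.3% of the protocadherin probes were detected at E13 and 44.8 to 50.7% at E16, beside 44.2 to 45.3% and 43.6 to 46.1% of all probes. Detection began at a background-subtracted signal of 11.8 to 22.1 depending on the array. Pcdhb8 lay just inside the threshold with a signal of 15.7 on E13 array 61, and Pcdhb12 just outside it with 16.1 on E16 array 80.

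Counted as genes, 26 to 29 of the 54 were detected per array at E13 (median 28) and 28 to 31 at E16 (median 30). In the alpha cluster, 8, 5, 7, 8 and 5 genes of 12 were detected on the E13 arrays, and at E16 the lowest count was 6, the median 6 and the highest 9. In the beta cluster the E13 arrays had 10, 12, 11, 12 and 9 genes of 22, and the E16 arrays from 10 to 14 with a median of 12.5. In the gamma cluster they had 11, 11, 10, 9 and 12 genes of 20 at E13, and 9 to 12 with a median of 10.5 at E16. The ranges of both stages overlapped in each cluster.

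**Figure D1:**
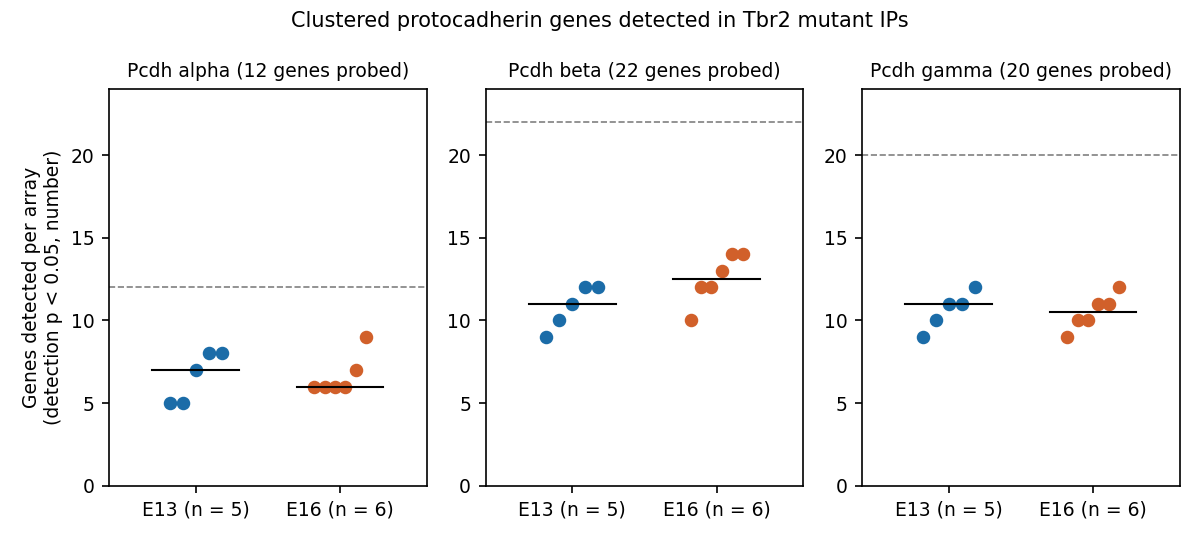
Number of alpha, beta and gamma protocadherin genes with a detection p-value below 0.05 on each array (y axis) at E13 and E16 (x axis). Each point is an array, the black line is the stage median, and the dashed line is the number of genes with a probe. Beta medians were 11 and 12.5, and the points of both stages overlap in every cluster.

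The genes detected were not spread evenly over the types of isoform. All 5 C-type genes were detected on some array, and 4 of them, Pcdhac2, Pcdhgc3, Pcdhgc4 and Pcdhgc5, on every array. Of the other alpha genes 3 of 10 were detected on every array (Pcdha6, Pcdha7 and Pcdha11), of the beta genes 7 of 22 (Pcdhb3, Pcdhb7, Pcdhb8, Pcdhb10, Pcdhb19, Pcdhb20 and Pcdhb22), of the gamma A genes 2 of 11 (Pcdhga4 and Pcdhga8) and of the gamma B genes 2 of 6 (Pcdhgb4 and Pcdhgb6). A gene was counted if any of its probes was detected. The other probe of Pcdhgc3 was detected on 3 arrays and that of Pcdhgc5 on 0. These shares are descriptions of few genes and were not tested, and probes that read shared exons would blur the types. In the order of the beta cluster, the last 4 genes, Pcdhb19 to Pcdhb22, were each detected on at least 10 arrays. So were Pcdhb3, Pcdhb7, Pcdhb8, Pcdhb10 and Pcdhb14 elsewhere in the cluster, and that stretch was picked after the values were seen.

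No probe of 17 genes was detected on any array. They were Pcdha1, Pcdha3 and Pcdha9 in the alpha cluster, Pcdhb1, Pcdhb5, Pcdhb9, Pcdhb11, Pcdhb13, Pcdhb15 and Pcdhb18 in the beta cluster, and Pcdhga1, Pcdhga3, Pcdhga5, Pcdhga6, Pcdhga9, Pcdhgb5 and Pcdhgb8 in the gamma cluster. For these the signal was not above background, which does not show that the RNA is absent. The remaining 19 genes were detected on 1 to 10 arrays.

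**Figure D2:**
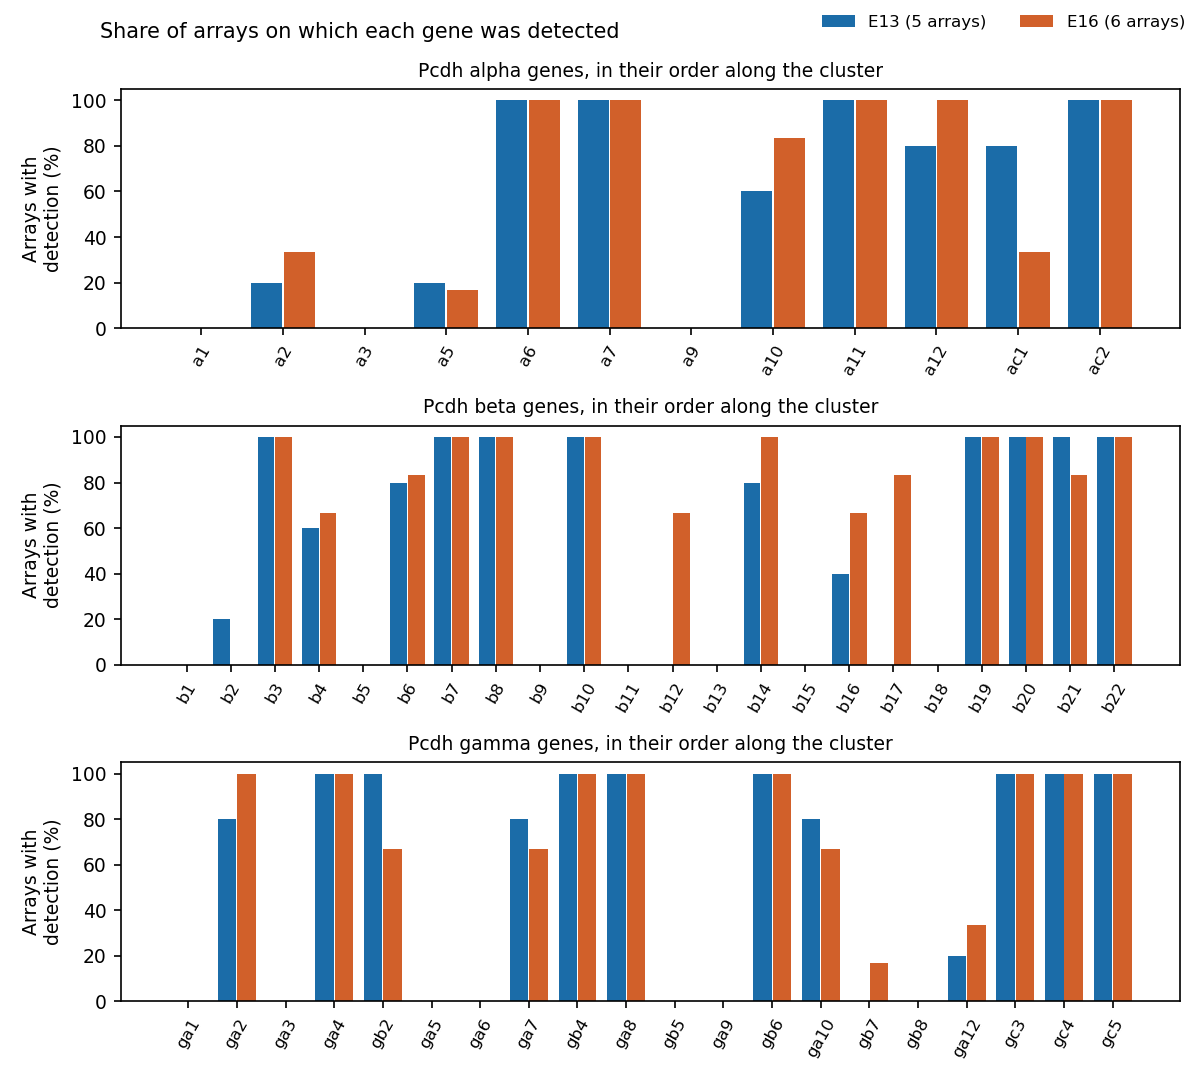
Share of arrays (y axis, percent) on which each protocadherin gene was detected at E13 (blue, 5 arrays) and E16 (orange, 6 arrays), with genes in RefSeq order along each cluster (x axis, Pcdh omitted from names). For genes with several probes, the probe detected on the most arrays is drawn; no gene has full bars at 1 stage and none at the other.

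Different probes of a gene did not always read alike. Pcdha6 had 3 probes, of which ILMN_3076948 was detected on all arrays and both others on none. Pcdha7 had 4 probes, of which ILMN_1215440 and ILMN_1250379 were detected on all arrays, ILMN_2677651 on 8 and ILMN_2689952 on 4. Of both Pcdhgc5 probes, ILMN_1216284 was detected on all arrays and ILMN_2672878 on none. Of both Pcdhgc3 probes, ILMN_2890002 was detected on all arrays and ILMN_2585283 on 3. Values are therefore given per probe.

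Between E13 and E16, 2 of the 19 probes detected on all arrays changed, Pcdhb7 and Pcdhb8, both of the beta cluster and both higher at E16. A probe was called with a Benjamini-Hochberg adjusted p below 0.05 in limma and a change of more than 1.5-fold. Among all 16411 probes tested, 11.3% were called, 5.17% higher and 6.09% lower at E16, so the protocadherin share of 10.5% was close to this background. None of the 19 was called lower. As a description, 17 of 19 log2 fold changes (E16 over E13) were above 0, with a median of 0.24. Of all tested probes 51.2% were above 0, with a median of 0.01. The 19 are not independent readings, since Pcdha7 has 2 probes among them and some probes may read shared exons. The medians were 0.15 for 5 alpha probes, 0.29 for 7 beta probes and 0.30 for 7 gamma probes, with 4, 7 and 6 of them above 0.

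**Figure D3:**
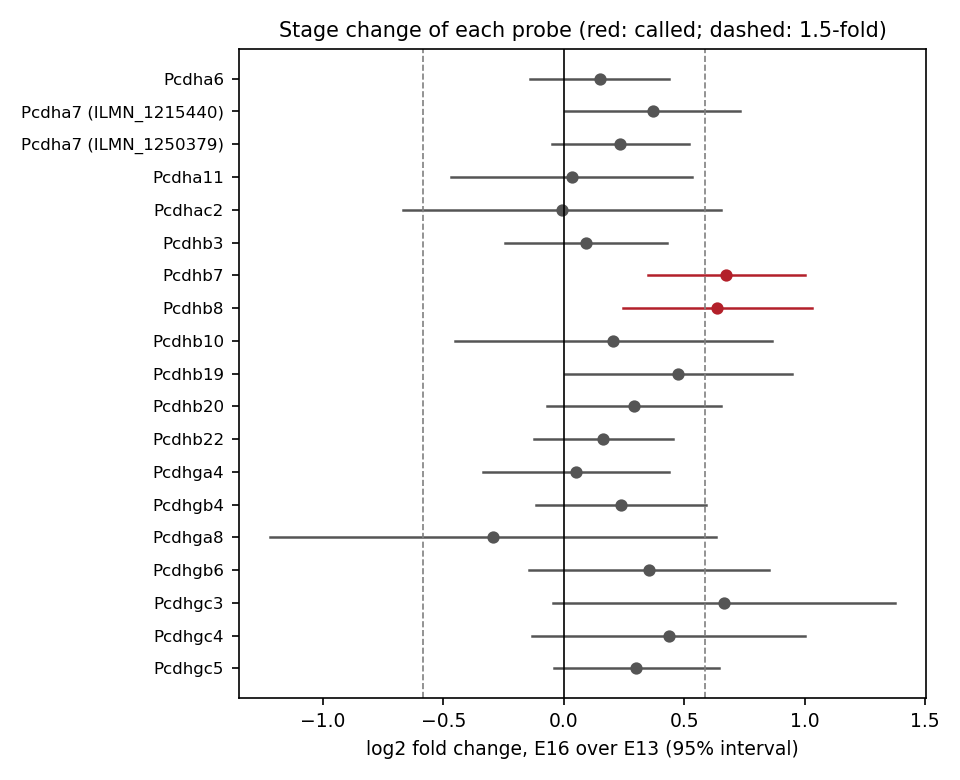
Log2 fold change of E16 over E13 (x axis) with its 95% interval for each of the 19 probes detected on all arrays (y axis, in cluster order). Red marks the 2 called probes, Pcdhb7 at 0.68 and Pcdhb8 at 0.64; dashed lines mark a 1.5-fold change.

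Pcdhb7 was the more stable of both calls. Its normalized signals at E13 were 92.6, 108, 121, 89.0 and 98.9. At E16 the lowest was 129, the median 164 and the highest 198. Every E16 array therefore lay above every E13 array, as for 11.7% of all tested probes. The log2 fold change was 0.68 (SE 0.151, limma adjusted p = 0.00689), and the call was kept under all 23 other settings tried, with values from 0.60 to 0.74.

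Pcdhb8, its neighbor in the cluster, lay near the detection limit. Its signals at E13 were 29.5, 27.8, 17.5, 18.1 and 22.8, and at E16 the lowest was 28.6, the median 35.8 and the highest 40.4. The highest E13 array overlapped the lowest E16 array. The log2 fold change was 0.64 (SE 0.182, limma adjusted p = 0.0262). The call was lost with a fitted background correction (0.39). It was also lost with the detection of Xist as a covariate, where the log2 fold change was 0.65 (adjusted p = 0.0647). Without E13 array 61, 64 or 65 it was lost as well, at 0.54 (adjusted p = 0.0800), 0.55 (adjusted p = 0.0705) and 0.63 (adjusted p = 0.0521). Xist was detected on 2 of 5 E13 arrays and 5 of 6 E16 arrays.

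The other beta probes were higher at E16 on average without passing the test. Pcdhb19 read 44.9 ± 5.21 (SD, n = 5) at E13 and 65.02 ± 22.6 (n = 6) at E16, a log2 fold change of 0.48 (SE 0.220, limma adjusted p = 0.156). Pcdhb20 read 59.5 ± 8.78 and 73.1 ± 12.5, and Pcdhb22 161 ± 16.7 and 181 ± 22.4. These genes close the beta cluster, and their arrays overlapped between stages. Pcdhb3, near its other end, read 124 ± 15.9 and 133 ± 22.5. Pcdhb10 read 32.7 ± 9.31 and 39.5 ± 17.8, a log2 fold change of 0.20 (SE 0.307) that was 0.32 without E13 array 64, 0.01 without E13 array 65 and -0.11 with the Xist covariate. Adjusted p-values of the 5 probes in limma ran from 0.156 to 0.736.

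**Figure D4:**
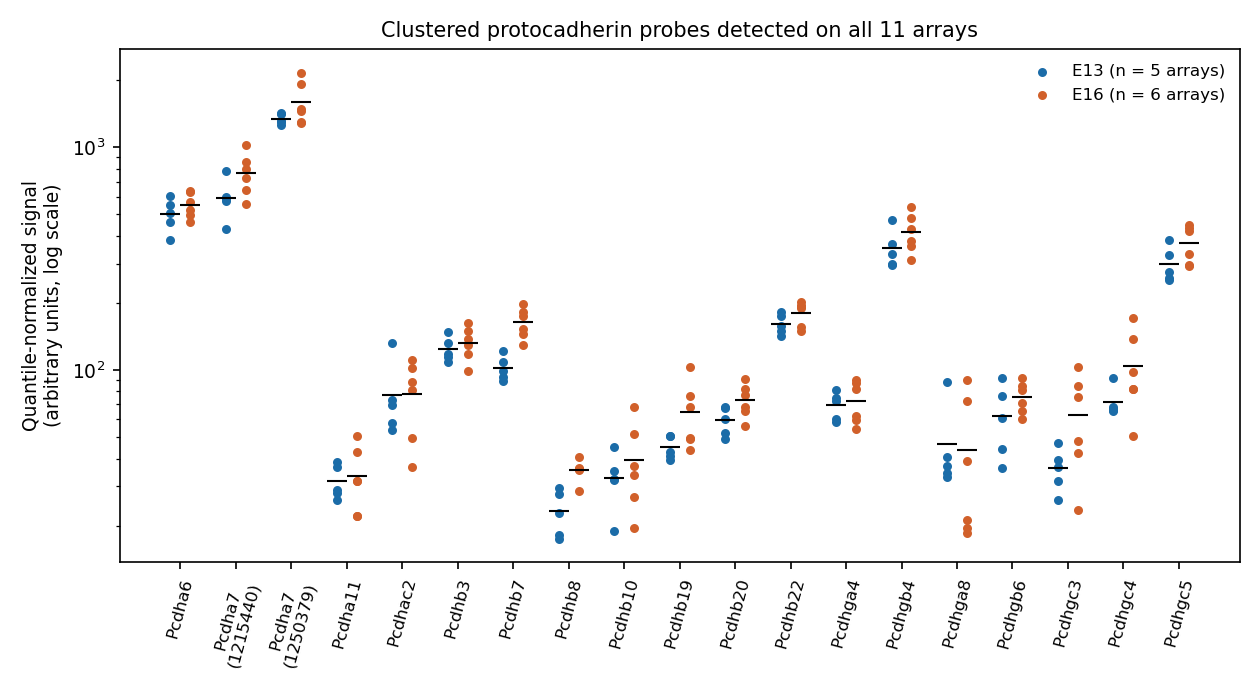
Quantile-normalized signal (y axis, log scale, arbitrary units) of the 19 protocadherin probes detected on all 11 arrays (x axis, in cluster order; probe numbers where a gene has several). Each point is an array at E13 (blue) or E16 (orange), and black lines are stage means. The stages separate without overlap for Pcdhb7 alone among these probes.

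No alpha probe passed the test. Pcdha7 read 594 ± 124 at E13 and 768 ± 165 at E16 with probe ILMN_1215440, and 1336 ± 71.2 and 1601 ± 360 with ILMN_1250379. The log2 fold changes were 0.37 (SE 0.169, limma adjusted p = 0.152) and 0.23 (SE 0.133, adjusted p = 0.247), so both probes pointed the same way within overlapping arrays. On both probes the highest signal came from E16 array 91, at 1022 and 2162. Pcdha6 read 501 ± 84.7 and 553 ± 72.0, and differed by 0.15 on the log2 scale (SE 0.135). Pcdha11 read 31.6 ± 5.64 and 33.5 ± 11.3, a difference of 0.03 (SE 0.234) that was 0.08 without E13 array 64 and changed sign with the Xist covariate and when some arrays were left out.

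Pcdhac2, the C-type gene at the end of the alpha cluster, is needed in mice for the even spread of serotonin axons. Its signals at E13 were 69.8, 53.5, 73.2, 131 and 57.8, the 131 being that of array 64. At E16 they ran from 36.8 through a median of 84.5 to 111. The stages overlapped throughout, with a log2 fold change of -0.01 (SE 0.308, 95% interval -0.67 to 0.65), and of 0.20 without array 64.

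Among gamma C-type genes, all 3 had a higher mean at E16 with the probe detected on all arrays, and none passed the test. Pcdhgc3, with probe ILMN_2890002, was measured at 39.2, 25.9, 36.6, 31.8 and 47.0 at E13. At E16 it ran from 23.4 through a median of 61.7 to 103. Both the lowest and the highest of all 11 arrays were thus at E16. The log2 fold change was 0.67 (SE 0.331, 95% interval -0.04 to 1.38, limma adjusted p = 0.186). Without E16 array 15, the array at 23.4, it was called at 0.92 (adjusted p = 0.0299). The other Pcdhgc3 probe, ILMN_2585283, was detected on 3 arrays and went the other way. With no detection filter and values floored at 16, it read 18.9 at E13 and 16.3 at E16, a log2 fold change of -0.18.

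Pcdhgc4, an isoform known from mice to be needed for neuronal survival, read 66.5, 68.3, 66.3, 92.1 and 65.6 at E13. At E16 its signals ran from 50.6 through a median of 90.3 to 171. The 92.1 came from array 64, and the other 4 E13 arrays lay close together. The log2 fold change was 0.44 (SE 0.264, limma adjusted p = 0.280), and 0.53 (adjusted p = 0.238) without that array. It was 0.27 without E16 array 11, the array at 171, and 0.62 without E16 array 97, the array at 50.6. Pcdhgc5, with probe ILMN_1216284, read 299 ± 55.1 at E13 and 370 ± 71.1 at E16; the log2 fold change was 0.30 (SE 0.160, adjusted p = 0.218).

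The variable gamma genes gave mixed directions. Pcdhgb4 read 353 ± 72.5 (SD, n = 5) at E13 and 417 ± 84.5 (n = 6) at E16, a log2 fold change of 0.24 (SE 0.165), and of 0.35 without E13 array 64. Pcdhgb6 read 61.9 ± 22.7 and 75.6 ± 12.2, and its log2 fold change of 0.35 (SE 0.233) was 0.18 without that array, the lowest of E13. Pcdhga4 read 69.4 ± 9.75 and 72.6 ± 15.5, and its log2 fold change of 0.05 (SE 0.180) was 0.00047 without that array. None of these differences exceeded the spread between arrays. Pcdhgb4 was highest at E13 on array 64 (472) and at E16 on array 95 (541), and the Pcdhgc5 probe was highest on the same arrays, at 382 and 445.

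Pcdhga8 had the widest error of the 19 probes. It read 40.8, 37.2, 34.6, 33.1 and 87.8 at E13, the last on array 65. At E16 it ran from 18.5 through a median of 30.1 to 89.8. High and low arrays thus occurred at both stages. The log2 fold change was -0.29 (SE 0.432, 95% interval -1.22 to 0.63, limma adjusted p = 0.687), and ranged from -0.04 without E13 array 65 to -0.56 without E16 array 11, the array at 89.8.

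Another 5 probes were detected on all arrays of just 1 stage. Such a probe enters a comparison through the stage where it is high, so the calls below are descriptions and support nothing for the group. With detection needed on all arrays of at least 1 stage, 13.5% of 18354 probes were called. Pcdhb14 was detected on 4 of 5 arrays at E13 and 6 of 6 at E16, and read 22.6 ± 6.73 and 47.8 ± 13.1 (log2 fold change 1.07, SE 0.256, limma adjusted p = 0.00915). Pcdhgb2 ran the other way, detected on 5 of 5 and 4 of 6 arrays, at 37.1 ± 7.64 and 23.0 ± 5.84 (-0.71, SE 0.216, adjusted p = 0.0339). Neither was called when all 45281 probes were tested (adjusted p = 0.0990 and 0.0925), where 3.64% were called.

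The background-subtracted signals before normalization show the spread behind both. Pcdhb14 gave 21.8, 25.6, 17.3, 32.1 and 18.6 at E13. Its E16 arrays ran from 15.3 on array 11 to 88.3 on array 95. The arrays also differed in brightness. Over the probes detected on all arrays, the median signal was 181 on array 11 and 422 on array 95. After normalization with detection needed at 1 stage, Pcdhb14 read 24.8 on array 11 and 63.8 on array 95. Its lowest normalized value was 16, the floor, on E13 array 65. Before normalization Pcdhgb2 gave 45.6, 32.8, 39.9, 31.3 and 37.2 at E13. At E16 it ran from 9.67, also on the dim array 11, to 29.96. The remaining 3 of these probes, Pcdhb21, Pcdhga2 and Pcdha12, had log2 fold changes of 0.64, 0.63 and 0.40 and were not called (limma adjusted p = 0.122, 0.135 and 0.393).

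Pcdhb17 and Pcdhb12, named after their values were seen, were detected on no E13 array but on 5 and 4 of 6 E16 arrays. For Pcdhb17 the E13 signals were 9.8, 7.5, 7.3, 13.1 and 6.8, and the E16 signals ran from 8.9 to 48.7. The mean E16 signal was 1.57 times the E13 detection limit. For Pcdhb12 it was 1.16 times that limit. Both means include E16 arrays without detection. With no detection filter neither passed the test (limma adjusted p = 0.0675 and 0.280). Pcdhac1, also named after its values were seen, was detected on 4 of 5 E13 and 2 of 6 E16 arrays. Its signals were 27.1, 3.2, 27.1, 28.8 and 27.2 at E13 and ran from 7.2 to 20.5 at E16. With no detection filter its log2 fold change was -0.50, and it was not called (limma adjusted p = 0.191).

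Of 20 genes listed for promoter choice and chromatin of these clusters, some of them general chromatin genes, 19 matched the platform. Of these, 17 had a probe detected on all arrays. None was called, with a median log2 fold change of -0.06. Of all tested probes 11.3% were called, with a median of 0.01, so counts in lists this short are descriptions only. Ctcf, which links the chosen promoters to distal enhancers, read 683 ± 32.5 at E13 and 679 ± 57.6 at E16 (-0.01, SE 0.0926, limma adjusted p = 0.951). Smchd1, a chromatin protein that represses clustered protocadherins in mice, differed by -0.06 (SE 0.115), and Dnmt3b, a methyltransferase acting on their promoters, by 0.20 (SE 0.137, adjusted p = 0.337). Rest, a repressor of neuronal genes, was not detected on all arrays.

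The counts in these lists stand beside 11.3% called among all tested probes. Of 12 tested genes for cytoplasmic partners and signaling none was called, with a median of 0.15. Marcks, an actin-linked protein downstream of gamma protocadherins, fell by 0.40 on the log2 scale (adjusted p = 0.00146 in limma), short of the 1.5-fold threshold. Of 4 tested genes for the proteases that cleave these proteins none was called. Of 17 tested genes that flank the clusters, 1 was called, Arap3. It was lower at E16 (86.0 ± 40.3 at E13, 36.7 ± 8.995 at E16, log2 fold change -1.11, limma adjusted p = 0.0270). Its arrays overlapped between stages, and the part of E13 array 64 in this call was not tested. Taf7, a general transcription factor gene lying between the beta and gamma clusters, was not detected on all arrays.

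Some markers of cell state were called between the same stages, against 11.3% of all tested probes, and their part in the protocadherin values was not tested. Of 13 tested neuronal genes, Mef2c (1.498) and Neurod6 (0.98) were called higher at E16, and the median log2 fold change of the list was -0.01. Others of these genes with a limma adjusted p below 0.05, short of the fold threshold, went both ways, with Neurod2 at 0.47 and Dcx at 0.31, and Gap43 at -0.54 and Rbfox3 at -0.54. Of 14 tested IP genes, Sstr2 (1.08) was called higher, and Dll3 (-1.64), Dll1 (-1.24) and Neurog1 (-1.17) lower. Of 9 tested radial glial genes, Ptprz1 (2.04) and Slc1a3 (1.58) were called higher, and Vim (-1.77) and Nes (-0.71) lower. Over all matched genes of a list, with signals floored at 16, the mean log2 signal of the IP list was 9.80 to 10.07 at E13 and 9.25 to 9.74 at E16, and that of the neuronal list 10.64 to 10.86 and 10.51 to 11.10.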

How the data were processed

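The arrays are Illumina bead arrays of total RNA from sorted cells. The authors deposited a background-subtracted signal intensity per probe and array, not yet normalized, with a detection p-value beside each. They also deposited a table of log2 values of 15825 probes, quantile-normalized after removal of outlier probes. The log base was checked against the signals. Another deposited table holds 22 columns of control arrays (11 of intensity, 11 of detection p-values) that are not samples of this series and were not used. Scanner and array software are not named in the sources used.

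Samples were grouped by their labels. Column names give stage and an array number, not the labels' replicate number. Signals of the 16411 probes detected (p below 0.05) on all 11 arrays were quantile-normalized, log2-transformed and tested for E16 against E13 with limma 3.58.1 in R 4.3.3 (moderated, with trend), adjusted over all probes by Benjamini-Hochberg. Calls needed an adjusted p below 0.05 and a change of more than 1.5-fold. The methods' fold and detection thresholds were kept, but their 2-way ANOVA also held controls. Means and SDs are of normalized signals; fold changes are of log2 values. For comparisons without a detection filter, or with detection needed at 1 stage, values were floored at 16. The ratio given for a probe not detected at a stage sets the other stage's mean against that stage's lowest detected signal. Signals of different probes were not compared, and the number of arrays limits the precision.

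All probes with the symbols were accounted for, and those detected on all arrays, or on all arrays of a stage, were named. In the other lists, called genes were named (up to 4 each way, by size of change), together with Ctcf, Smchd1, Dnmt3b, Rest and Taf7; each gene was read at its brightest probe. The members and lists were chosen with earlier results of these data known. Gene names came from the platform annotation, and gene order from RefSeq (GRCm38.p6). The test was checked on simulated data. Alternatives were other backgrounds, scalings, filters, tests, array weights, a replicate block, Xist as a covariate and leaving out each array.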

Additional observations from a re-analysis of the deposited data

Results flagged for a closer look

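In 4 of 44 groups of arrays an extreme value lay far from the rest (Dixon's test at 95%, which chance meets in about 1 in 20 groups, or 2.2 here). The Pcdhac2 signal of E13 array 64 was 131, with the next at 73.2. The Pcdhgc4 signal of the same array was 92.1, with the next at 68.3. On that array the mean log2 signal of the interneuron list was 7.60 and that of the erythroid list 10.09, against 4.48 to 5.48 and 4.63 to 6.31 on the other 10 arrays, and the part of this in both values was not tested. The Pcdhga8 signal of E13 array 65 was 87.8, with the next at 40.8. On E16 array 91, 9 alpha genes were detected, with the next array at 7.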

How the results depend on the processing

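Pcdhb7 kept its call and direction under all 23 alternatives (adjusted p 0.00425 to 0.0346). The count of probes called higher, 2, was 1 with fitted background correction (nec), without a detection filter, with detection at p below 0.01, in the authors' value table, with Xist as a covariate, and without E13 array 61 or 64. It ranged from 1 to 3 when arrays were left out. Pcdhb8 was the lost call in these (adjusted p 0.0302 with nec, under the fold threshold; 0.0757 without the filter), and was not among the probes of the authors' table or those detected at p below 0.01. Without E13 array 65 Pcdhb14 was called in its place, and without E16 array 91 Pcdhb21 was called as well. Neither probe was detected on all arrays. Each enters the test only once the array without its detection is left out, so these calls support nothing for the group. For Pcdhb21 that array also held its lowest background-subtracted signal, 6.67. The count of probes called lower was 1, not 0, with detection needed at 1 stage. It was 0 whenever an array was left out.

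Replicate numbers did not pair the samples: deviations of same-numbered E13 and E16 samples in the authors' table correlated at -0.25 to 0.171. With the replicate block fitted there, the count of probes called higher was 1, as without it. Directions turned for 4 probes, none of them called. Pcdha11 turned with Xist (-0.074) and without E13 array 40 and E16 array 80 together (-0.037), and ranged from -0.087 to 0.15 when arrays were left out. Pcdhac2 turned with nec (0.0016), detection at 1 stage (0.0041), array weights (0.10), the replicate block (0.18) and Xist (0.038), and ranged from -0.13 to 0.20 when arrays were left out. Pcdhb10, at 0.20, turned with Xist (-0.11). Pcdhga4 turned with array weights (-0.021) and ranged from -0.017 to 0.13 when arrays were left out.

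With detection at p below 0.01 the median number of genes detected per array fell to 5 for alpha at E13. Alpha counts at E16 then ran from 3 to 5, against 6 to 9 at p below 0.05. The medians fell to 7 and 9 for beta at E13 and E16, and to 8 and 7 for gamma. Signals near the detection limit bound what these arrays resolve, and probes detected on no array give no level.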
